A study of Homo sapiens with 8 samples.

Results

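The enzymes described here are oxygenases that consume oxygen and 2-oxoglutarate and need iron in the active site. They comprise 34 genes, chosen by their symbols from a list of demethylases and hydroxylases, and all 34 were found among the 54261 genes of the count table. By role they fall into 16 JmjC histone demethylases, 3 other JmjC proteins, 8 enzymes acting on DNA or RNA (TET, ALKBH and FTO), 6 collagen hydroxylases and ASPH. All 34 passed the filter on low counts of the hypoxia comparison (10 or more counts in 2 or more of its 6 libraries). The oxygenases that hydroxylate HIF were not among the 34 and are given for reference at the end.

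Total RNA depleted of ribosomal RNA was sequenced from human cell lines grown to passage 5. The untreated groups were 2 lines labelled as normal intestinal epithelium, NCM460 and HIEC6, and 3 colorectal cancer (CRC) lines, DLD1, HCT116 and HCT8. The treated group was the same 3 CRC lines under hypoxia, with 1 library for each line and condition, so the lines are the replicates. The oxygen level and the duration of the hypoxia are not given in the sources used here, and no allele or other agent is named for any group.

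Total counts lay between 45519306 and 57374239 per library, and a floor of 3 counts was worth 0.0523 to 0.0659 counts per 1000000 (CPM), for counting error only. No run label was common to untreated and treated CRC libraries, so run and treatment cannot be told apart. The hypoxia label was checked on 10 known HIF targets. All 10 were higher in all 3 pairs, with BNIP3 at or near 0 in DLD1 and HCT8, and 6 of them passed the test with the cell line as a block. The labels of the normal lines were checked on epithelial markers. HIEC6 had EPCAM at 0.176 CPM, against 275.1 to 651.3 CPM in the other 4 untreated lines. CDH1 (3.03 CPM), KRT19 (0.987), CLDN7 (3.47) and CDX2 (0.0529) were also lower in HIEC6 than in each of those lines. KRT8 at 4290 CPM was higher than in those lines, and KRT18 at 3725 CPM lay within their range. KRT20, CDX1 and VIL1 were at or near 0 in HIEC6, NCM460 and HCT116. Of the mesenchymal markers, VIM was at 1223, FN1 at 116.7 and COL1A1 at 45.99 CPM in HIEC6. In NCM460 these were at 8.62, 52.3 and 30.0 CPM. ZEB1 (16.8 CPM) and PDGFRB (8.61 CPM) were highest in HIEC6 among the untreated lines. S100A4 was at 26.0 CPM in HIEC6 and 76.6 CPM in NCM460. COL1A2, COL3A1, SPARC and THY1 were at 0.0353 to 1.16 CPM in HIEC6. NCM460 correlated with HCT116 at r = 0.994 over all genes on the log2(CPM + 1) scale, and with HIEC6, the other line of its group, at 0.924. These are bulk libraries, in which a change in the share of a kind of cell and a change in RNA per cell cannot be told apart.

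The 2-oxoglutarate oxygenases couple the splitting of molecular oxygen to the oxidative decarboxylation of 2-oxoglutarate to succinate, and place the other oxygen atom on their substrate. On methylated lysines, cytosines or adenosines this hydroxylation leads to loss or conversion of the methyl group. On collagen it makes hydroxyproline, which holds the triple helix together, and hydroxylysine, which carries crosslinks. Several of the genes are textbook targets of HIF, the transcription factor that low oxygen stabilises.

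The first comparison asked which of the oxygenases change under hypoxia. In the 3 CRC lines, the histone demethylases KDM3A and KDM4B, the DNA demethylation enzyme TET1 and the collagen hydroxylases P4HA1, P4HA2 and PLOD2 were higher under hypoxia in all 3 pairs, and all 6 passed the test when the cell line was taken as a block. The largest mean changes were those of PLOD2 and P4HA1, at 2.87 ± 0.268 (SE) and 2.63 ± 0.415 on the log2 scale. None of the 34 genes passed as lower.

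Without the block, the edgeR quasi-likelihood fit (Benjamini-Hochberg adjustment over all genes) called 0 of 34 genes, against 0 of 21045 genes tested (0%). At an unadjusted p under 0.05 this fit had 8 of the 34 and 607 of all genes, and DESeq2 without the block called 3, which were KDM3A, P4HA1 and PLOD2. With the block the count was 6 of 34 (17.6%), all higher, against 200 of 21045 genes in either direction (0.950%), 156 higher (0.741%) and 44 lower (0.209%). With DESeq2 and the block, 15 of the 34 were called higher against 4.54% of all genes, and none lower against 3.38%. Beside the 6 genes called by edgeR with the block these were JMJD1C, KDM4C, KDM5B, KDM6B, JMJD6, TET2, ALKBH5, PLOD1 and ASPH. Their DESeq2 adjusted p with the block ran from 9.12e-05 (KDM5B) to 0.0265 (ASPH). Whether they passed thus depended on the method, and below they are described by the edgeR values. Leaving out the HCT8 pair took the count with the block to 0 of 34, with 6 genes called in all, leaving out DLD1 gave 5 and leaving out HCT116 gave 7.

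By direction alone, 18 of 34 (52.9%) were higher in all 3 pairs against 16.2% of all genes tested, and 10 of 34 (29.4%) were lower in all 3 against 26.4%. The second share was near that of all genes. A CPM ratio of at least 2 in all 3 pairs was found for 4 of the 34 (KDM3A, KDM4B, P4HA1 and PLOD2) against 1.93% of all genes, and a ratio of 0.5 or less in all 3 pairs for none against 0.908%. The hypoxia libraries were all above the untreated ones for 9 of the 34 (KDM3A, KDM4B, KDM4C, KDM5A, TET2, ALKBH5, P4HA1, P4HA2 and PLOD2) against 3.06%, and all below for 3 (KDM4A, HSPBAP1 and PLOD3) against 6.44%. CPM values rest on column totals. In the HCT116 pair the median of all genes stood at -0.354 on the log2 scale by column totals and at 0.003 with TMM scaling, so that changes in that pair read 0.356 higher under TMM, while in DLD1 and HCT8 the shift was 0.032 and 0.009. With TMM scaling, 20 of the 34 were higher and 8 lower in all 3 pairs, against 22.3% and 21.3% of all genes.

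**Figure D1:**
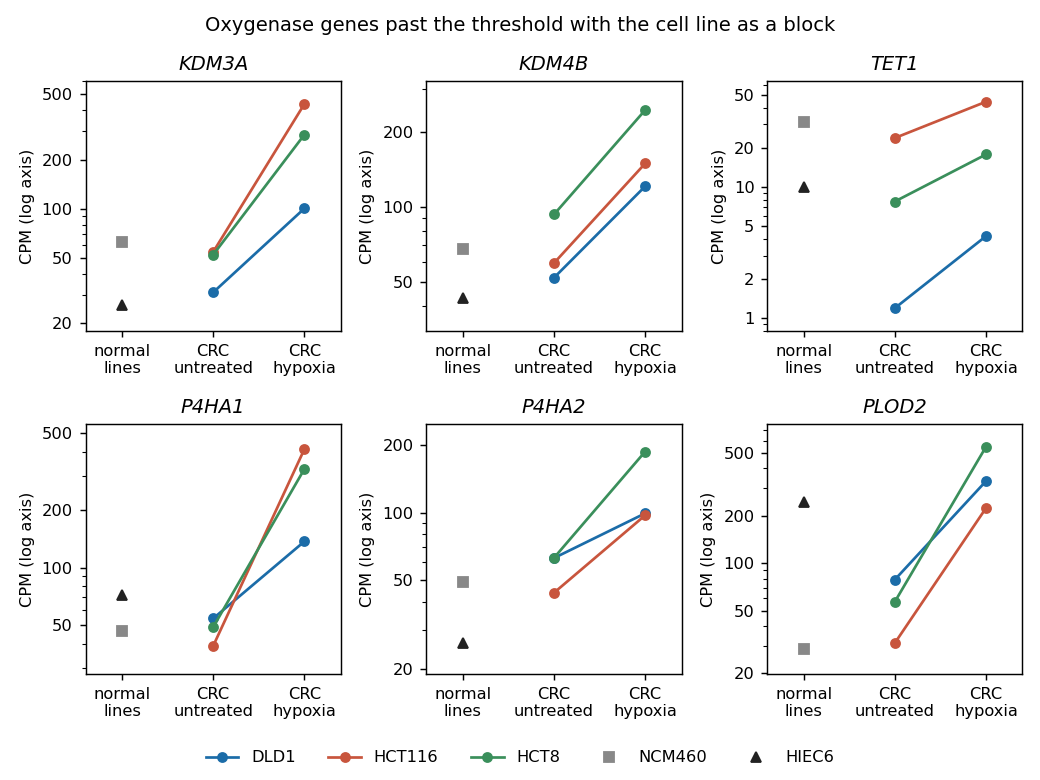
CPM on a log axis of the 6 genes past the threshold with the cell line as a block, in the 2 normal lines (square NCM460, triangle HIEC6) and in each CRC line untreated and under hypoxia (points joined by line, 1 library each). Every joined line goes up, and for TET1 the spread between lines is wider than the change, from 1.19 CPM in untreated DLD1 to 23.6 CPM in untreated HCT116.

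Among the histone demethylases, KDM3A, which removes methyl groups from lysine 9 of histone H3, changed most. Its untreated level was 30.9 CPM in DLD1, 54.6 in HCT116 and 52.5 in HCT8, and its level under hypoxia was 100.6, 436.5 and 283.7 CPM in the same order. The lowest hypoxia library lay above the highest untreated one. The CPM ratios were 3.25 in DLD1 (95% interval 3.07 to 3.44, exact, for counting error), 7.99 in HCT116 (7.69 to 8.31) and 5.40 in HCT8 (5.19 to 5.63). The intervals do not overlap, so the lines differed by more than counting error. With the block, KDM3A rose by 2.51 ± 0.304 (SE) on the log2 scale (edgeR adjusted p = 0.0163, and from 9.01e-11 to 1 over the 19 alternatives). Its nearest relative KDM3B, with the same substrate, stood at 194.8, 238.6 and 214.2 CPM untreated and at 220.4, 211.7 and 212.4 CPM under hypoxia, with a fitted log2 change of 0.13 ± 0.167. The third of this subfamily, JMJD1C, was higher in all 3 pairs, by 1.42 to 1.55 times, and did not pass (adjusted p = 0.104 in edgeR with the block).

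The KDM4 genes, which act on lysine 9 of histone H3, moved apart from each other. KDM4B went from 51.8 to 121 CPM in DLD1, from 59.3 to 149.6 CPM in HCT116 and from 93.2 to 245.6 CPM in HCT8. The groups did not overlap, and the ratios of 2.34, 2.52 and 2.64 were the most even of the 6 genes. KDM4B rose by 1.45 ± 0.179 (SE) on the log2 scale with the block (edgeR adjusted p = 0.0169, and from 1.95e-10 to 1 over the alternatives). KDM4C stood at 40.7, 29.6 and 45.7 CPM untreated and at 49.6, 57.4 and 95.9 CPM under hypoxia. Its groups did not overlap either, but the fitted change of 0.91 ± 0.229 did not pass (edgeR with the block, adjusted p = 0.105). KDM4A was lower in all 3 pairs, at 131, 120.6 and 121 CPM untreated and 95.03, 53.8 and 98.6 CPM under hypoxia, again with no overlap and without passing (log2 change -0.51 ± 0.182, edgeR adjusted p = 0.197 with the block). Of the exon bases of KDM4A, 40.2% are shared with another annotated gene on the same strand, and how reads over such bases were counted is not given in the sources used here. KDM4D was at 1.56 to 4.27 CPM in the untreated CRC lines and went in opposite directions, with a ratio of 1.82 in HCT8 (1.37 to 2.43) and 0.524 in HCT116 (0.418 to 0.656). Opposite directions past 1.5-fold were found for 2 of the 34 genes, KDM4D and KDM8, against 14.3% of all genes.

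The other histone demethylases moved less. Of the KDM5 genes, which act on lysine 4 of histone H3, KDM5B was higher in all 3 pairs at ratios of 1.62, 1.65 and 1.99, with a log2 change of 0.94 ± 0.174 and an edgeR adjusted p of 0.0562 with the block. It passed with upper-quartile normalization (edgeR adjusted p = 0.0485 with the block) and in DESeq2 with the block (adjusted p = 9.12e-05). KDM5A and KDM5C were higher in all 3 pairs by at most 1.31 times. KDM6B, a demethylase of lysine 27 of histone H3, had ratios of 1.39, 2.03 and 1.90 (log2 change 0.94 ± 0.21, edgeR adjusted p = 0.0831 with the block), and its relative KDM6A had ratios between 0.912 and 1.30. KDM2A was higher in all 3 pairs and KDM2B in 2 of 3, and PHF2 and PHF8 were lower in all 3, at ratios between 0.651 and 0.938, but with TMM scaling KDM2B was higher in all 3 and PHF2 turned to a log2 difference of 0.07 in HCT116. Over the 16 genes, 9 were higher in all 3 pairs (56.2%, against 16.2% of all genes) and 3 lower (18.8%, against 26.4%). With TMM scaling 10 were higher (62.5%, against 22.3%) and 2 lower (12.5%, against 21.3%). The median log2 change was 0.34 with the block, against 0.03 over all genes tested.

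Of the 3 other JmjC proteins, JMJD6, a lysyl hydroxylase of splicing factors, was higher in all 3 pairs, at 26.5, 48.4 and 20.5 CPM untreated and 39.2, 126.7 and 39.7 CPM under hypoxia. The groups overlapped, since untreated HCT116 lay above the other two lines under hypoxia, and the log2 change of 1.10 ± 0.244 did not pass (edgeR adjusted p = 0.0814 with the block). HSPBAP1 was lower in all 3 pairs, from 7.87 to 8.53 CPM untreated and 2.64 to 6.89 CPM under hypoxia. KDM8 was at 2.51 to 5.58 CPM untreated and had a ratio of 1.53 in DLD1 (1.27 to 1.86), 0.511 in HCT116 (0.377 to 0.687) and 0.901 in HCT8 (0.755 to 1.07).

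TET1, TET2 and TET3 oxidise 5-methylcytosine in DNA. TET1 stood at 1.19 CPM in DLD1, 23.6 in HCT116 and 7.75 in HCT8 untreated, and at 4.22, 44.7 and 17.7 CPM under hypoxia. Its untreated and hypoxia groups overlapped, because the lines differed more from each other than the conditions did, while every line was higher under hypoxia, at ratios of 3.54 (2.66 to 4.77), 1.89 (1.77 to 2.03) and 2.29 (2.03 to 2.58). TET1 rose by 1.43 ± 0.231 on the log2 scale with the block (edgeR adjusted p = 0.0375, and from 1.19e-06 to 1 over the alternatives). The call was lost without the DLD1 pair (edgeR adjusted p = 0.0657), whose untreated library held 61 counts. TET2 was higher in every pair, at 36.8, 24.4 and 41.1 CPM untreated and 52.2, 44.4 and 60.2 CPM under hypoxia, and did not pass (log2 change 0.77 ± 0.208, edgeR adjusted p = 0.119 with the block). TET3 was lower in all 3 pairs at ratios of 0.793 to 0.897, and the HCT116 pair turned to a log2 difference of 0.09 with TMM scaling.

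The ALKBH enzymes and FTO remove alkyl groups from RNA or DNA. ALKBH5, a demethylase of m6A in messenger RNA, stood at 158.5, 181.7 and 205.8 CPM untreated and at 232.5, 330.7 and 349.3 CPM under hypoxia. All hypoxia libraries lay above all untreated ones, and the log2 change of 0.86 ± 0.19 did not pass (edgeR adjusted p = 0.0813 with the block). An antisense gene covers 9.91% of its exon bases. FTO, which acts on the same mark, had ratios of 1.27, 0.789 and 1.05, and with TMM scaling its log2 difference in HCT116 turned to 0.01. The DNA repair enzymes ALKBH2 and ALKBH3 and the tRNA demethylase ALKBH1 were lower in all 3 pairs, at ratios between 0.515 and 0.986. None of these 3 passed (lowest edgeR adjusted p = 0.38 with the block). Over the 8 enzymes on DNA or RNA the median log2 change was 0.02. In all 3 pairs 3 were higher (37.5%, against 16.2% of all genes) and 4 lower (50%, against 26.4%), and with TMM scaling 4 were higher and 3 lower.

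Of the 6 collagen hydroxylases 3 passed with the block, and the median log2 change over all 6, the sparsely counted P4HA3 included, was 1.13 against 0.03 over all genes. Their summed level went from 456.5 to 822.7 CPM in DLD1, from 472.6 to 1453 CPM in HCT116 and from 428.3 to 1380 CPM in HCT8. P4HA1, P4HA2 and P4HA3 are alternative catalytic subunits of collagen prolyl 4-hydroxylase. P4HA1 stood at 54.4, 39.1 and 49.0 CPM untreated and at 136.9, 413.5 and 326.1 CPM under hypoxia. The groups did not overlap, and the ratio ran from 2.52 in DLD1 (2.41 to 2.63) to 10.6 in HCT116 (10.1 to 11.1). P4HA1 rose by 2.63 ± 0.415 on the log2 scale with the block (edgeR adjusted p = 0.0349, and from 1.67e-07 to 1 over the alternatives). P4HA2 stood at 62.7, 43.9 and 62.8 CPM untreated and at 99.3, 97.3 and 187.3 CPM under hypoxia. Again there was no overlap, and P4HA2 rose by 1.27 ± 0.221 with the block (edgeR adjusted p = 0.0472, and from 0.000107 to 1 over the alternatives). Antisense genes cover 1.52% of the exon bases of P4HA1 and 5.41% of those of P4HA2. The one over P4HA2, P4HA2-AS1, had 0 counts in every library. P4HA3 was too low to compare, with 5, 56 and 8 counts untreated and 3, 42 and 2 under hypoxia.

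PLOD1, PLOD2 and PLOD3 hydroxylate collagen lysines, and PLOD2 acts on the telopeptides, where the crosslinks form. PLOD2 stood at 78.6, 31.1 and 56.9 CPM untreated and at 332.4, 224 and 549.1 CPM under hypoxia. The groups did not overlap, with ratios of 4.23 (4.09 to 4.37), 7.20 (6.83 to 7.58) and 9.65 (9.29 to 10.0). PLOD2 rose by 2.87 ± 0.268 on the log2 scale with the block and had the lowest adjusted p of the 34 (edgeR, 0.00564, and from 1.84e-18 to 1 over the alternatives). PLOD1 was higher in all 3 pairs at ratios of 1.49, 2.58 and 1.57, and did not pass (log2 change 0.995 ± 0.249, edgeR adjusted p = 0.104 with the block). PLOD3 was lower in all 3 pairs, at 154.6, 107.2 and 100.3 CPM untreated and 96.5, 70.8 and 67.1 CPM under hypoxia. Its groups did not overlap, and the log2 change of -0.49 ± 0.175 did not pass (edgeR adjusted p = 0.199 with the block). ASPH, which hydroxylates aspartate and asparagine in EGF-like domains, had ratios of 1.19, 1.52 and 1.75 (log2 change 0.69 ± 0.195, edgeR adjusted p = 0.131 with the block).

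Mesenchymal markers were read in the same pairs as the collagen hydroxylases, and they did not move alike in all 3 lines. Of 10 markers, 9 were tested and 1 of them (FN1) passed with the block. In all 3 pairs 4 were higher (44.4%, against 16.2% of all genes). The summed level of the markers was 22.2 to 250.8 CPM untreated and 139.6 to 384.2 CPM under hypoxia. In HCT116 and HCT8 most of this sum was S100A4. It held 202.3 of 250.8 CPM in untreated HCT116 and 204.8 of 384.2 CPM under hypoxia. In HCT8 it went from 127.5 of 144.9 CPM to 272.9 of 299.2 CPM, and in DLD1 from 8.51 of 22.2 CPM to 41.2 of 139.6 CPM. THY1 was at or near 0 in every CRC library, at 0 to 0.331 CPM. In the HCT8 pair the log2 differences of COL1A1, FN1, PDGFRB and S100A4 were positive (0.80 to 1.21) and those of VIM, COL1A2, COL3A1, SPARC and ZEB1 negative (-2.22 to -0.13). Of 10 epithelial markers 1 passed with the block (KRT19, higher), and their summed level was 4704 to 11580 CPM untreated and 5671 to 14230 CPM under hypoxia. The part of these markers in the change of the hydroxylases was not tested.

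**Figure D2:**
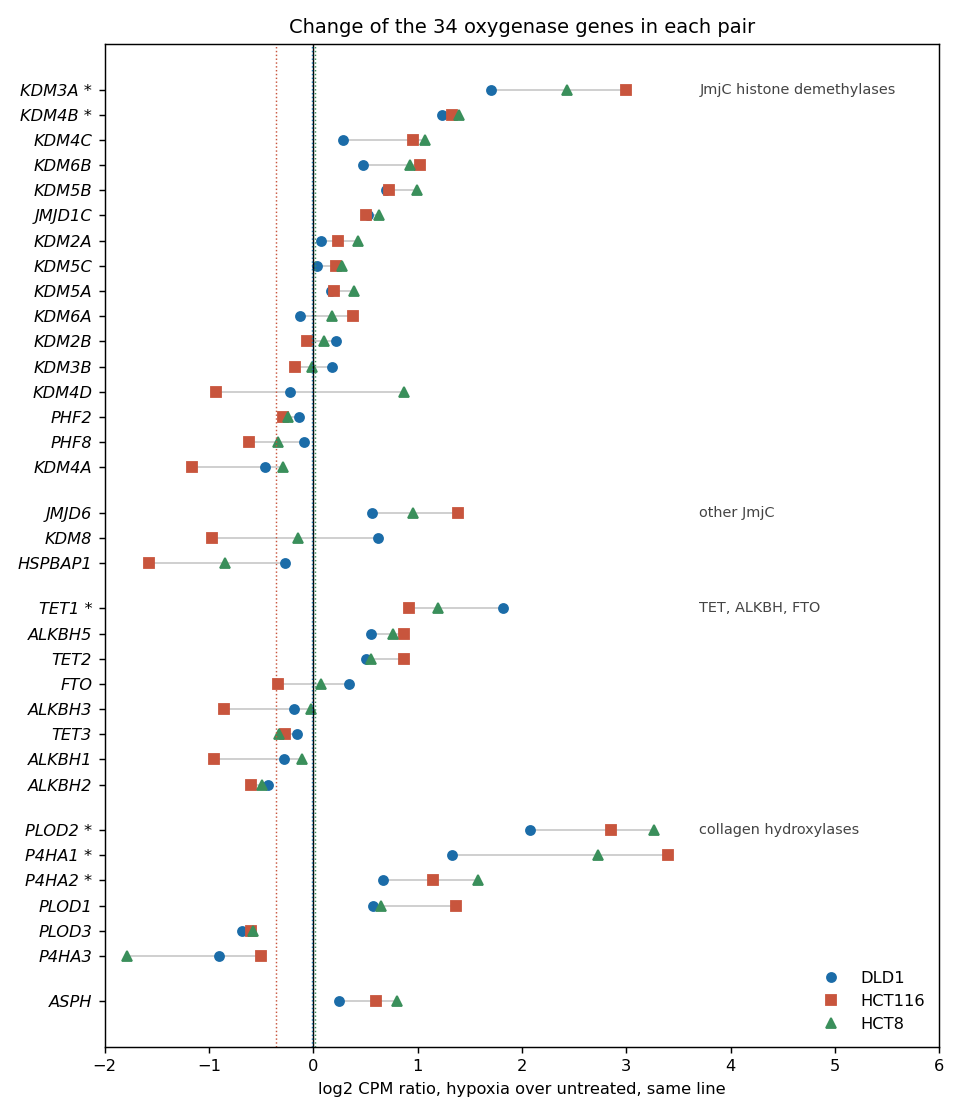
Log2 CPM ratio of hypoxia over untreated for each of the 34 genes in each line (circles DLD1, squares HCT116, triangles HCT8), grouped by role and sorted by the median of the 3 pairs, with an asterisk on the 6 genes past the threshold with the block. Dotted lines mark the median of all genes tested in each line, which is -0.354 in HCT116, and PLOD2, P4HA1 and KDM3A stand farthest to the right.

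In each line alone, ratios of at least 2 were found for 5 of 33 genes with enough counts in DLD1 (11.2% of all genes), 8 of 34 in HCT116 (12.4%) and 7 of 33 in HCT8 (14.4%). With TMM scaling the count in HCT116 was 13. The shares of all genes given here were taken by column totals, so none goes with the counts under TMM scaling. Ratios of 0.5 or less were found for none in DLD1 (5.90% of all genes), 2 in HCT116 (KDM4A and HSPBAP1, 25.7%, and 1 with TMM scaling) and none in HCT8 (9.81%). With 1 library per condition these counts carry no test.

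Ratios between related genes within a library do not depend on its scaling. The pairs of genes below were chosen after their values were seen and carry no test. The count of PLOD2 over that of PLOD3 went from 0.509 to 3.45 in DLD1, from 0.290 to 3.16 in HCT116 and from 0.567 to 8.18 in HCT8. The more abundant of the 2 lysyl hydroxylases by count was thus PLOD3 in every untreated CRC library and PLOD2 in every hypoxia library. KDM4B over KDM4A went from 0.395, 0.492 and 0.770 to 1.27, 2.78 and 2.49, which crosses 1 in all 3 lines. KDM3A over KDM3B went from 0.159, 0.229 and 0.245 to 0.456, 2.06 and 1.34, so KDM3A stayed below KDM3B in DLD1. P4HA1 over P4HA2 went from 0.867, 0.891 and 0.780 to 1.38, 4.25 and 1.74. TET1 over TET3 changed by 3.95, 2.28 and 2.88 times and stayed below 1 in every library, and ALKBH5 over ALKBH1 changed by 1.79, 3.53 and 1.83 times.

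**Figure D3:**
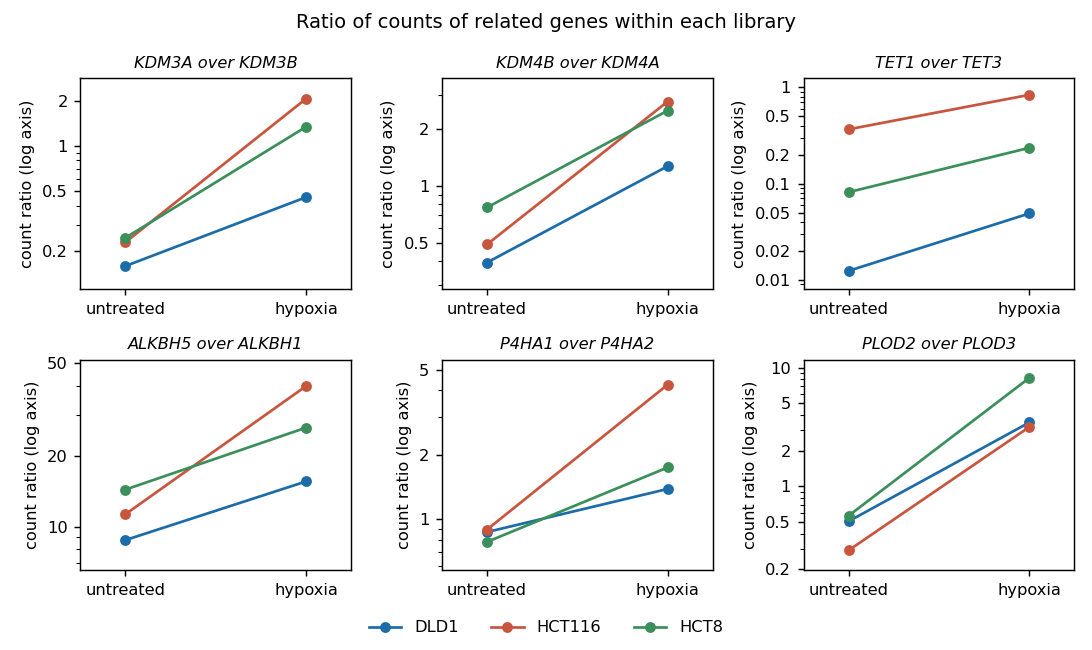
Ratio of the raw counts of related genes within each library, on a log axis, untreated and under hypoxia, with 1 line per CRC cell line. Every line goes up, and PLOD2 over PLOD3 passes from below 1 (0.290 to 0.567) to above 1 (3.16 to 8.18) in all 3 lines.

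The promoters of the genes that passed are shown because the letters ACGTG and GCGTG are the core of the hypoxia response element that HIF binds. The sequences come from RefSeq (GRCh38.p14). The window was the 250 bases before the most upstream start of each gene, searched on both strands, with overlapping matches counted separately. Of the 34 genes 31 were matched by symbol, and ASPH, JMJD6 and P4HA3 were not. Either motif was found in 20 of 31 (64.5%), against 43.1% of all 27305 promoters and 54.8% of the 12265 promoters of genes tested. Among the 6 genes that passed, 4 held a match. Stretches of 90 bases around these matches follow in the direction of the gene, 5′ to 3′, with matches to either motif on either strand in capitals. KDM3A is from chr2:86441281-86441370, plus strand, KDM4B from chr19:4968863-4968952, plus strand, P4HA1 from chr10:73096905-73096994, minus strand, and PLOD2 from chr3:146161324-146161413, minus strand.
KDM3A: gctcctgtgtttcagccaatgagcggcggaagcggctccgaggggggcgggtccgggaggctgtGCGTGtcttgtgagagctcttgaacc
KDM4B: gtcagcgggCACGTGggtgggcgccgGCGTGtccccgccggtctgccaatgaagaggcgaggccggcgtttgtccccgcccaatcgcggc
P4HA1: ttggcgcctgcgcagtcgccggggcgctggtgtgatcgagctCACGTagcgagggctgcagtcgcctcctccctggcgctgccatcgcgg
PLOD2: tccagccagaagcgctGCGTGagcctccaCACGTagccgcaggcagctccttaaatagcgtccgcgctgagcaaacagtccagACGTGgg
KDM4B held 4 matches in the window and PLOD2 held 3, while KDM3A and P4HA1 held 1 each. In the KDM4B stretch the run CACGTG is the motif on both strands and counts as 2 overlapping matches. The windows of P4HA2 and TET1 did not contain these letters. A match is a stretch of letters only, and binding was not measured.

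Levels between genes were compared as CPM per kilobase of the canonical transcript. By the median of the 3 untreated CRC lines, ASPH (43.6 to 87.8), ALKBH5 (50.2 to 65.2) and PLOD1 (35.7 to 84.1) were the most abundant on this scale, and their ranges overlapped. In DLD1 alone PLOD3 was the highest, at 54.8. By the same median the least abundant were P4HA3 (0.0433 to 0.475), KDM4D (0.528 to 1.45) and TET1 (0.124 to 2.46), while in HCT116 KDM8 (1.03) lay below KDM4D and TET1. Ordered by the median of the 3 lines, P4HA1 went from rank 10 untreated to rank 1 under hypoxia (median 17.9 to 118.9), PLOD2 from rank 12 to 4 (15.2 to 88.7) and KDM3A from rank 15 to 6 (11.3 to 60.8). KDM4A went from rank 6 to 14 and PLOD3 from rank 4 to 11.

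**Figure D4:**
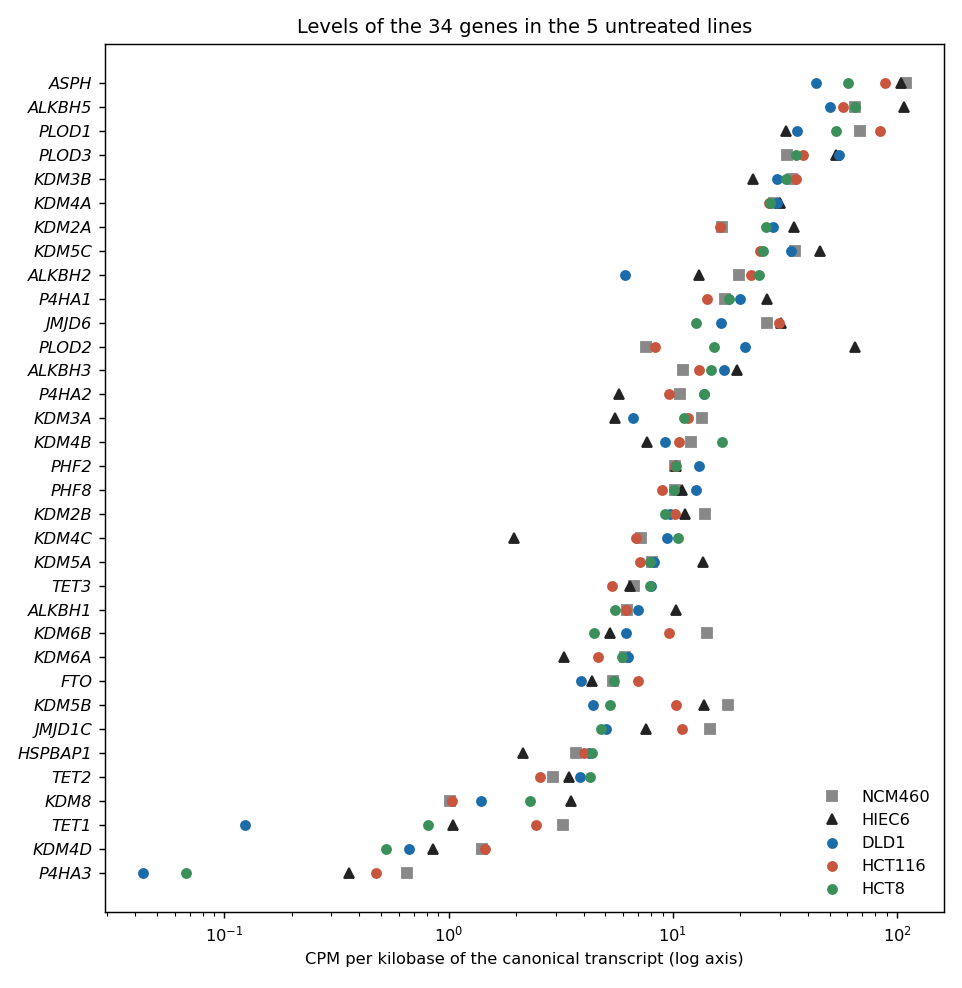
CPM per kilobase of the canonical transcript, on a log axis, of the 34 genes in the 5 untreated lines, 1 library each, sorted by the median of the CRC lines. The highest line lies over 2-fold above the lowest for 19 of the 34 genes. The share of all genes was not taken for this count, so it is not read as a trait of these genes. PLOD2 is highest (64.9) and KDM4C lowest (1.95) in HIEC6 (black triangles).

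The second comparison set the 3 untreated CRC lines against the 2 normal lines. None of the 34 genes passed, as none of the 19964 genes tested did (0%). At an unadjusted p under 0.05 edgeR had 1 of the 34, KDM5B, and 542 of all genes, and DESeq2 called 143 genes and none of the 34. KDM5B stood at 164.3 and 128 CPM in NCM460 and HIEC6 and at 41.1, 95.7 and 48.8 CPM in DLD1, HCT116 and HCT8. The log2 difference of CRC from normal was -1.40 ± 0.472 (edgeR adjusted p = 0.999). The CRC lines all lay below the normal lines for 4 of the 34 genes (KDM2B, KDM5B, KDM5C and ASPH), against 4.99% of all genes, and all above for 1, HSPBAP1, against 13.2%.

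The normal lines also differed from each other. PLOD2 was at 243.2 CPM in HIEC6 and 28.5 CPM in NCM460, with the CRC lines at 31.1 to 78.6 CPM. It was the one gene of the 34 that lay over 2-fold above the other 4 untreated libraries in HIEC6, against 4.90% of all genes. KDM4C was the one gene that lay under 0.5 of the lowest of the others, at 8.45 CPM against 29.6 to 45.7 CPM, which 16.8% of all genes did. NCM460 and HCT116 differed by less than 1.5-fold for 33 of the 34 genes, with KDM5B as the exception, whereas NCM460 and HIEC6 did so for 12 of the 34. Among the CRC lines, DLD1 and HCT8 were nearest in these genes, with 27 of 34 within 1.5-fold. All genes tested gave similar distances. The median absolute log2 difference of NCM460 and HCT116 was 0.19 in the 34 genes and 0.209 over all genes. For NCM460 and HIEC6 it was 0.646 and 0.594, and for DLD1 and HCT8 0.283 and 0.32.

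Other genes of the same chemistry were read in the same fit with the block. Of the 4 HIF hydroxylases, EGLN3 passed, from 6.28 to 10.8 CPM untreated to 80.1 to 127.9 CPM under hypoxia (log2 change 3.66 ± 0.216, edgeR adjusted p = 0.000809), and EGLN1 had a log2 change of 1.48 ± 0.271 (adjusted p = 0.0533 in edgeR). Of 25 further oxygenases tested, 1 passed as higher, the histone demethylase KDM7A (log2 change 1.23 ± 0.212, edgeR adjusted p = 0.0452), and none as lower. P3H2, a collagen prolyl 3-hydroxylase, was at least 2-fold higher in all 3 pairs at 0.402 to 2.36 CPM untreated, and did not pass (adjusted p = 0.116 in edgeR). Of these 25, 4 were higher in all 3 pairs (16.0%) and 7 lower (28.0%), near the shares of all genes (16.2% and 26.4%). With TMM scaling 7 were higher and 7 lower (28.0% each, against 22.3% and 21.3%).

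Among 24 genes that make or use 2-oxoglutarate or succinate, none passed as higher and 1 as lower. This was PSAT1, the transaminase of serine synthesis, which releases 2-oxoglutarate, and it fell by 2.80 ± 0.361 on the log2 scale (edgeR adjusted p = 0.0187 with the block). In this list 15 of 24 genes were lower in all 3 pairs (62.5%, against 26.4% of all genes), and 13 with TMM scaling (54.2%, against 21.3%). The methyltransferases that set the marks removed by these enzymes, with the partner subunits EED, SUZ12 and WTAP (22 genes tested), gave no call with the block, with 11 lower in all 3 pairs, or 9 with TMM scaling, and a median log2 change of -0.12. Of 10 genes that work beside the collagen hydroxylases, none passed. P4HB, the common beta subunit of prolyl 4-hydroxylase, was higher in all 3 pairs, from 651.8, 1372 and 802.5 CPM to 760.7, 1749 and 1127 CPM (log2 change 0.49 ± 0.179, edgeR adjusted p = 0.203). COLGALT2, a collagen galactosyltransferase, was at 0.153 to 7.17 CPM untreated and lay more than 2-fold lower in all 3 pairs, with under 3 counts left in HCT116, without passing (edgeR adjusted p = 0.102 with the block). The partners as a whole were lower in all 3 pairs for 7 of 10 genes, or 5 of 10 with TMM scaling.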

How the data were processed

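Gene counts of 8 libraries were used as deposited. The authors aligned the reads (HISAT2 2.0.4 per the submitters' processing notes) and deposited raw counts per gene. Their methods name GRCh37 and the processing notes GRCh38, and the counter, the strand and the treatment of reads with several matches are not given in the sources used here. The extraction text of the labels names another tissue. No column was left aside (0 unused).

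CPM was computed from column totals. Tests used edgeR 4.0.16 (quasi-likelihood, TMM, Benjamini-Hochberg over all genes, threshold 0.05) in R 4.3.3 after a filter that kept genes reaching 10 counts in 2 or more of the libraries fitted. SE is the log2 change over the root of F. The hypoxia fit has no block. With the cell line as the replicate block is the paired alternative, since same-numbered libraries come from the same line and their deviations correlated at 0.836, 0.857 and 0.82. Nothing says that lines were grown as separate cultures, so p-values measure the spread between these libraries. Intervals of ratios are exact conditional binomial. Lengths are of canonical transcripts (GENCODE 44 lifted to GRCh37, for 34 of 34 genes).

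Alternatives were DESeq2 1.42.0, limma-trend (limma 3.58.1), upper-quartile normalization, other filters, all 8 libraries, 1.5-fold and TMM in the pairs, and each library left out. Limma-trend with the block, and single genes under the block alternatives, were added after seeing the data. Genes described in full had passed with or without the block, changed 2-fold in 2 or more pairs, went past 1.5-fold in opposite directions, were too low, or stood apart in HIEC6. The genes and lists were chosen with earlier results of these data known. The script was tested on simulated data.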

Additional observations from a re-analysis of the deposited data

Results flagged for a closer look

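In 2 of the 34 genes, pairs went in opposite directions past 1.5-fold, against 14.3% of all genes tested. For KDM4D the log2 difference between hypoxia and untreated was 0.86 in HCT8 and -0.93 in HCT116, a gap of 1.79, on 82 to 223 counts per library. For KDM8 it was 0.62 in DLD1 and -0.97 in HCT116, a gap of 1.58, on 71 to 297 counts per library. With TMM scaling the HCT116 values were -0.58 and -0.61, KDM4D no longer reached 1.5-fold in that pair, and KDM8 was the 1 gene of the 34 left, against 13.5% of all genes. There is 1 pair per line, so the difference between lines was not tested.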

How the results depend on the processing

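With the replicate block (the paired fit) the hypoxia comparison called 6 of the 34 genes and 200 genes in all, against 0 and 0 without it. DESeq2 called 3 and 55 without the block and 15 and 1666 with it, upper-quartile normalization with the block 7 and 215, and limma-trend with the block 4 and 113. Leaving out a line from the paired fit gave 5 and 292 without DLD1, 7 and 738 without HCT116 and 0 and 6 without HCT8, so these calls rest on which lines are present. All other alternatives without the block gave 0 of 34, among them each single library left out. In the comparison of CRC with normal lines DESeq2 called 143 genes, none of them among the 34, and every other alternative called 0 of the 34. At 1.5-fold in place of 2-fold, the counts of the 34 genes higher and lower were 8 and 1 in DLD1, 14 and 9 in HCT116 and 15 and 1 in HCT8. The shares of all genes at 1.5-fold in each pair were not taken, so these counts show only the dependence on the threshold. At 2-fold, TMM scaling gave 13 and 1 in HCT116 in place of 8 and 2, again without a share of all genes on that scale. The sign of the small change of KDM4D turned with the block (0.03), limma-trend (0.04, also 0.04 with the block), DESeq2 with the block (0.06) and upper-quartile normalization with the block (0.07), and to 0.15 and 0.33 with the block and without DLD1 or HCT116, and its value was -0.40 to 0.53 with single libraries left out. KDM8 turned to -0.03 with the block and with limma-trend (also -0.03 with the block) and to -0.37 with the block and without DLD1, and was -0.23 to 0.40 with single libraries left out. For TET1 that range in the fit without the block was -0.12 (without the HCT116 hypoxia library) to 2.72. The cause of these turns was not tested. Depth limits P4HA3, at 2 to 56 counts in the CRC libraries.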
